A study of Mus musculus with 12 samples.

Results

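Embryonic acinar cells of the mouse pancreas were set against adult acinar cells, acinar cells turning ductal in culture and pancreatic tumor cells, and the genes described here are those that set the embryonic arrays apart from every other array. Acinar cells make and secrete the digestive enzymes. In the embryo they arise from a branching epithelium of multipotent progenitors that also gives rise to ducts and hormone-producing islets, surrounded by a mesenchyme that supplies growth factors, with vessels, nerves and a mesothelial cover forming at the same time. Many genes of fetal growth, among them a set expressed from only 1 parental copy (imprinted genes), are shut down in most tissues after birth.

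The 12 Affymetrix arrays fell into 4 groups of 3. Adult acinar and embryonic acinar cells had been freshly isolated with collagenase and their RNA taken at once; acinar-to-ductal metaplasia (ADM) cultures had been kept in collagen for 7 days with TGF-alpha at 50 ng/ml, which activates the EGF receptor. Tumor cells of low passage had grown in standard medium. Every sample carries the strain label C57Bl6/J wildtype, so no group is labelled with an allele, a transgene or a deletion. The labels give no embryonic day, no age of the adult mice, no origin of the tumor cells beyond low passage, and no word on pooling of embryos or on the source of the replicates, so spreads and p-values cover the arrays and may be partly technical.

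A gene was taken as high in the embryonic cells when its lowest embryonic array lay at least 1 log2 unit above the highest of the 9 other arrays, and as low when the mirror image held; this distance is called the gap. Of 22180 measured genes, 268 were high (1.21%) and 4 were low (0.018%). The rule used all 12 arrays, so the size and direction of these differences are a description and are not tested. It also capped the 9 other arrays, which limits how far a high gene could differ among them.

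The same rule applied to each other group gave the background for these counts. Adult acinar arrays stood apart by 132 genes above (0.595%) and 426 below (1.92%). ADM arrays stood apart by 111 above (0.5%) and 3 below (0.0135%), and tumor arrays by 101 above (0.455%) and 210 below (0.947%). The embryonic cells thus had the longest list above the others of the 4 groups, while their list below was nearly empty, as was that of the ADM cultures.

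**Figure D1:**
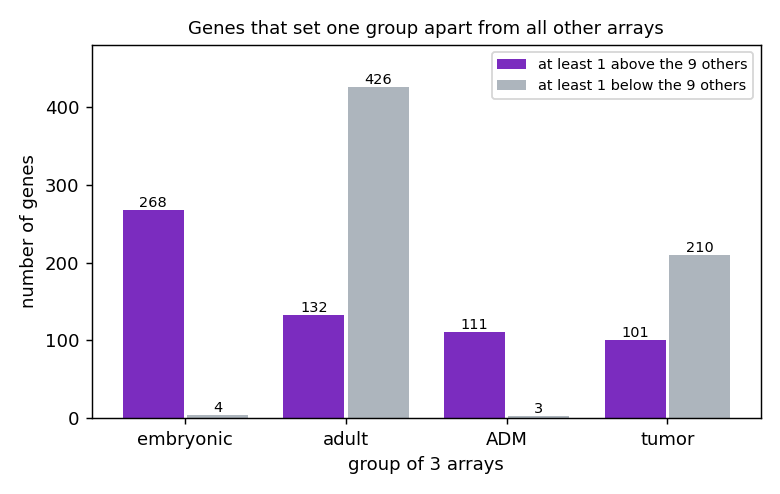
Number of genes (y axis, linear, from 0) by which each group of 3 arrays (x axis) lay at least 1 log2 unit above (purple) or below (grey) all 9 other arrays. The embryonic group has 268 genes above and 4 below, against 132 and 426 for adult acinar cells.

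The acinar part of the embryonic label was checked against acinar genes. Cpa1, the gene of the zymogen carboxypeptidase A1, read 12.87, 12.83 and 12.97 on the embryonic arrays and 13.11 to 13.15 on the adult arrays. On ADM arrays it read 12.19 to 12.70, so a high Cpa1 is not particular to embryonic cells. None of 32 measured acinar enzyme genes was high in the embryonic cells alone, and the median enzyme lay 0.73 below the highest other group. Their summed linear signal was 93130 to 130100 on embryonic and 167500 to 171500 on adult arrays. Ptf1a, the master regulator of acinar fate, read 8.04, 8.34 and 7.02 on the embryonic arrays against 8.80 to 8.92 on adult arrays, and Bhlha15, a regulator of secretory maturation, read 7.56, 8.21 and 7.83 against 10 to 10.13. Acinar transcripts were therefore abundant on all 3 embryonic arrays, with the summed enzyme signal and the 2 regulators lower than in adult cells. In bulk RNA, more cells of a type and more RNA per cell cannot be told apart, which holds for every gene below.

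The 3 embryonic arrays did not carry the same mixture of other transcripts. Measured intestinal epithelial genes (38) deviated on average by -1.29 on replicate 1 and by 1.27 on replicate 3 from the mean of the embryonic arrays. Hepatic genes (33) deviated by 0.98 on replicate 2 and erythroid genes (25) by 0.42 on the same array, while acinar enzymes (32) deviated by 0.82 on replicate 3. The mean deviation of all measured genes was -0.012 on replicate 1 and 0.012 on replicate 3. Correlations across genes were 0.967 to 0.991 within groups, 0.919 to 0.930 between embryonic and ADM arrays, 0.891 to 0.914 between embryonic and adult arrays, and 0.863 to 0.884 between embryonic and tumor arrays. Leaving out embryonic replicate 1, 2 or 3 gave 306, 343 and 301 high genes. Under this rule, leaving out an array can only keep or add members.

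Members covered a wide range of levels. Their mean over the embryonic arrays ran from 4.47 to 11.93, with a median of 7.12, and the median of their group means was 4.04 in adult, 4 in ADM and 3.48 in tumor cells. A background level of 3.62 was set from 1394 olfactory and vomeronasal receptor genes, taken as genes silent in pancreas. All 268 high genes lay above it on every embryonic array; the other group means were at or under it for 72 genes in adult, 98 in ADM and 160 in tumor cells, and for 53 genes in all 3. Where the nearest group is at or under it, a fold is given as a lower bound against it. The gap was at least 2 for 105 genes, at least 3 for 46 and at least 4 for 15, and under 1.5 for 101.

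At the edge of the rule, 2610008E11Rik, Psmb9, Slc35f1 and St18 had gaps of 1.00, and Bex2 fell just outside with 0.99. Perp was the last low gene with 1.02, and Tpd52l1 fell just outside with 0.93.

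Among the widest gaps were those of a family of protease inhibitors and of a pair of calcium-binding proteins. Stfa1 encodes a stefin, an inhibitor of cysteine proteases, and read 11.10, 10.57 and 10.23 on the embryonic arrays against 3.28 to 4.20 on the other 9, a gap of 6.03. S100a8, which with S100a9 forms the heterodimer calprotectin of neutrophils and monocytes, read 10.49, 9.85 and 9.62 against 2.82 to 3.74. S100a9 read 10.42, 9.91 and 9.46 against 3.01 to 4.04. The embryonic means were 123-fold above the nearest group for Stfa1, 73.4-fold for S100a9 and at least 82.5-fold for S100a8. No embryonic array came near any other array in these genes, and replicate 1 was the highest and replicate 3 the lowest each time.

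Other stefin genes followed with gaps of 5.57 for Stfa3, 5.32 for Stfa2l1, 4.07 for Cstdc4 and 2.5 for Csta3. Stfa2l1, Cstdc4 and Csta3 are consecutive measured genes on chromosome 16, and S100a8 and S100a9 are consecutive on chromosome 3. Stefin genes are close copies, so a probe set may read more than 1 of them. The related genes Stfa2 and Cstdc3 had gaps of -0.68 and -0.46, so the measured copies were not all high. The 100 bases before the RefSeq start site (build GRCm38.p6, gene strand) of the 5 stefin members are shown because these neighbouring genes were high together; capitals mark the longest run of bases, 13 long, that the 250 bases before the start of all 5 hold.
Stfa2l1, chr16:36156711-36156810, plus strand: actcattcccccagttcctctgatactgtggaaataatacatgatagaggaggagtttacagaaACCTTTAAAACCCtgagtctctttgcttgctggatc
Cstdc4, chr16:36184112-36184211, plus strand: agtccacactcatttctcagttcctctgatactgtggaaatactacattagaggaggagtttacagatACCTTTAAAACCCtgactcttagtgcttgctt
Csta3, chr16:36210303-36210402, plus strand: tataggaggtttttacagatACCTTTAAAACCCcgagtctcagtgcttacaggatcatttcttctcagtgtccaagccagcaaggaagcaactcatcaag
Stfa1, chr16:36277048-36277147, plus strand: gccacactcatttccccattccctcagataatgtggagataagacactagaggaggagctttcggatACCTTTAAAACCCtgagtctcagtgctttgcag
Stfa3, chr16:36455393-36455492, minus strand: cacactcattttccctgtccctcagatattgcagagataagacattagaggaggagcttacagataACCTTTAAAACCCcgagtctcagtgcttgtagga
The run, searched on both strands, was held by 8 of 32851 RefSeq promoters, which belong to 8 genes, all stefins, cystatin-domain genes or the unmeasured Gm7260. It began 32 to 36 bases before the start in 4 of the members and 80 bases before it in Csta3. The 2 non-members Stfa2 and Cstdc3 hold it too, so the run does not separate members from non-members.

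**Figure D2:**
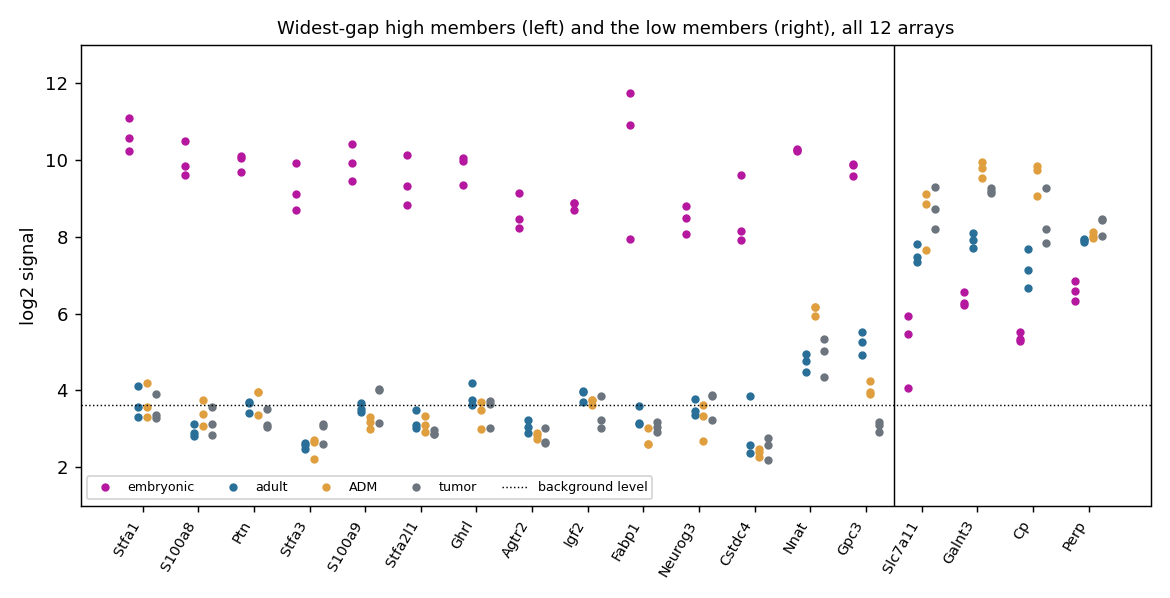
Log2 signal (y axis) of the 14 named high members with the widest gaps and the 4 low members (x axis) on all 12 arrays; each point is 1 array, coloured by group, and the dotted line is the background level of 3.62. The embryonic points of Stfa1 lie at 10.23 to 11.10 with all others at 4.20 or below, and those of Fabp1 spread from 7.93 to 11.73.

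Beyond the calprotectin pair and the stefins, the neutrophil and myeloid granule list added Camp, the cathelicidin antimicrobial peptide, with 6.96, 6.04 and 5.55 against 2.63 to 3.71. In all, 6 of the 34 measured genes of that list were members; Cstdc4 and Csta3 are not on it. The rest of the list was split. Ly6g, a surface protein of mature neutrophils, read 3.50, 2.66 and 2.43 and Elane, the neutrophil elastase, 3.37, 3.02 and 2.83, at or under the background level. Mpo, myeloperoxidase, read 4.75, 4.67 and 4.11 against 2.87 to 3.50. Ngp, a neutrophil granule protein, read 5.62, 4.82 and 4.40 against 2.43 to 3.53, and Retnlg, a resistin-like protein of myeloid cells, 6.68, 5.37 and 3.74 against 2.5 to 3.44. The summed linear signal of the list was 4353 to 8483 on embryonic, 406 to 441 on adult, 2365 to 3339 on ADM and 2968 to 4065 on tumor arrays. All 6 members were highest on embryonic replicate 1 and lowest on replicate 3; without replicate 3, 9 genes of the list met the rule, with Mpo, Ngp and Retnlg added. The part of neutrophils or their precursors in these values was not tested.

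Imprinted growth genes held the largest share of members among the lists, which were chosen with earlier results of these data known. Of 23 measured, 14 were members (60.9%, against 1.21% of all genes). The median gene of the list lay 2.22 above the highest other group, against -0.34 for the median of all genes. The rule selects on this same difference, so here and for the lists below it is a description. Igf2, the fetal growth factor expressed from the paternal copy, read 8.88, 8.70 and 8.89 against 3.02 to 3.98, 30.8-fold above the adult mean. Nnat, neuronatin, read 10.24, 10.26 and 10.29 against 4.35 to 6.17 and was among the most even members, with an SD of 0.03 (n = 3). Mest, a hydrolase-fold protein of mesoderm, read 10.32, 10.02 and 10.20 against 4.05 to 7.45, and Zim1, a zinc finger gene, 9.30, 8.71 and 8.96 against 2.94 to 4.73. Plagl1, Peg10, Slc38a4, Grb10, Cdkn1c, Asb4 and Ndn had gaps of 1.61 to 3.27. None of these 14 genes was highest on replicate 2, and 11 were lowest there.

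Of the IGF system, 3 of 20 measured genes were members. Besides Igf2 these were Igf2bp3, an RNA-binding protein of fetal tissue that binds Igf2 mRNA, with 7.17, 7.65 and 7.06 against 3.53 to 4.21, and Igfbp2, an IGF-binding protein, with 5.24, 5.02 and 5.61 against 3.06 to 3.91. The list as a whole was not higher in embryonic cells: its median gene lay -0.11 from the highest other group. Its summed signal was 3624 to 4660 on embryonic, 1842 to 1964 on adult, 4634 to 5217 on ADM and 2796 to 4932 on tumor arrays. Among 13 measured oncofetal genes the members were Igf2bp3 and Gpc3, a membrane heparan sulfate proteoglycan, which read 9.89, 9.87 and 9.57 against 2.92 to 5.52. Lin28b, a repressor of let-7 maturation, lay at 2.57 to 2.78 on embryonic arrays, under the background level. Afp, fetal albumin, read 4.51, 9.97 and 4.63 on embryonic replicates 1, 2 and 3 and Alb, albumin, 4.76, 10.51 and 4.68. Replicate 2 was far the highest in both. The largest value in the other groups was 3.65 for Afp and 4.53 for Alb, so replicates 1 and 3 also lay above it, by at least 0.86 for Afp and 0.15 for Alb.

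A stretch of chromosome 12 from Dlk1 to Mir409 held 8 members among 52 measured genes. Dlk1, a Notch-related membrane protein expressed from the paternal copy, read 8.48, 8.04 and 8.12 against 3.23 to 4.10. Meg3 and Rian, long noncoding RNAs of the maternal copy, read 7.31, 6.49 and 7.29 against 3.55 to 4.46, and 9.40, 8.92 and 8.93 against 2.97 to 6.19. The small RNA transcripts AF357425, DQ267101, AF357355 and DQ267102, which lie further along the stretch, had gaps of 2.97, 1.94, 2.62 and 3.41. Of the 9 genes in the stretch that are not miRNA genes, 7 were members.

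The miRNA genes of the stretch looked different: 1 of 43 was a member, 29 had an embryonic mean at or under the background level and 5 had a gap above 0. The member, Mir453, read 6.74, 4.91 and 5.22 against 2.35 to 3.52. Array probes to miRNA genes can read the precursor, so the mature RNA was not measured separately. Mir680-1, on chromosome 6, was the other miRNA gene among the members and read 5.17, 5.08 and 5.71 against 2.59 to 3.77. Their mature sequences in RefSeq (GRCm38.p6, plus strand) are given because they are the only miRNA members; capitals mark the seed, bases 2 to 8, and the seeds differ.
mmu-miR-453, chr12:109735669-109735692: aGGUUGCCucauagugagcuugca
mmu-miR-680, chr6:129691541-129691561: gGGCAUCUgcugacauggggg
The 100 bases before the start of Meg3, the first of the maternally expressed RNAs of the stretch, are shown with the TATA motif (TATAAA) in capitals, 25 bases before the start, and those of S100a8 with the motif 30 bases before the start.
Meg3, chr12:109540896-109540995, plus strand: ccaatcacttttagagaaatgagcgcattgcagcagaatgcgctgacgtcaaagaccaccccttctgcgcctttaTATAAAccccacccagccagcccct
S100a8, chr3:90668971-90669070, plus strand: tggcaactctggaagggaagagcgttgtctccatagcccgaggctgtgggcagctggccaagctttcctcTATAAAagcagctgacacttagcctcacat
TATAAA on the gene strand, lying wholly 40 to 16 bases before the start, was held by 14 of 243 RefSeq promoters of 192 high members (5.8%), by 489 of 20611 promoters of all measured genes (2.4%) and by 655 of 32851 promoters of the table (2.0%). Anywhere in the 300 bases and on either strand, the shares were 15.2%, 12.3% and 13.6%. These matches are letters in a window and were not tested.

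**Figure D3:**
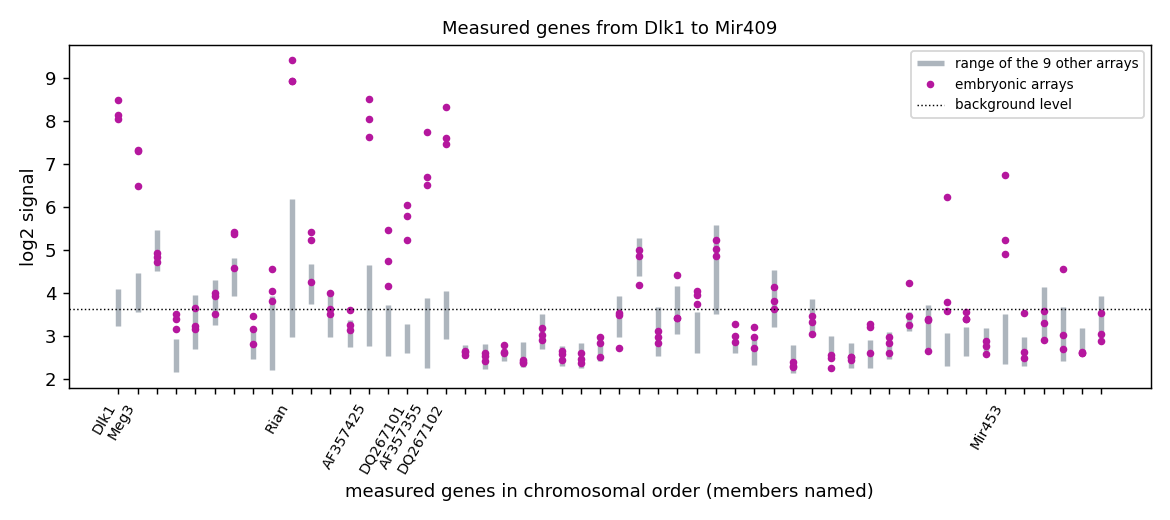
Log2 signal (y axis) of the 52 measured genes from Dlk1 to Mir409 in chromosomal order (x axis, members named). Magenta points are the 3 embryonic arrays, grey bars the range of the 9 other arrays and the dotted line the background level of 3.62. The embryonic points lie at least 1 above the grey bars at Dlk1, Meg3, Rian, 4 small RNA transcripts and Mir453. They lie above them by less at AF357426, Mir493, Mir1193, Mir544 and Mir382. Most miRNA genes lie at or under the line.

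Endocrine genes were the largest listed group, with 17 members among 34 measured. Neurog3, the transcription factor that commits pancreatic progenitors to the islet lineage, read 8.50, 8.80 and 8.06 against 2.69 to 3.88, 27.9-fold above the tumor mean. Ghrl, the gene of ghrelin, a hormone of a transient fetal islet cell type, read 9.96, 9.36 and 10.05 against 3.01 to 4.19. Isl1 and Rfx6, further islet transcription factors, had gaps of 2.47 and 1.25. The median gene of the list lay 1.55 above the highest other group.

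Several islet hormone genes were also well above background elsewhere. Gcg, glucagon, read 11.95, 11.78 and 12.05 against 10.27 to 10.63 on adult arrays, 8.66 to 9.55 on ADM arrays and 4.88 to 6.76 on tumor arrays. Sst, somatostatin, read 11.23, 10.87 and 11.23 against 7.95 to 8.52 on adult arrays. Pyy, peptide YY, read 11.55, 11.33 and 11.51, and its chromosomal neighbour Ppy, pancreatic polypeptide, 9.99, 9.52 and 9.92; their highest other values were 7.73 and 7.71. Chgb, chromogranin B of hormone granules, read 10.06, 9.93 and 10.06 against 3.14 to 6.53. Islet transcripts were thus on adult and ADM arrays too, at lower levels: the summed linear signal of the list was 19520 to 22770 on embryonic, 4965 to 6083 on adult, 5265 to 7065 on ADM and 1685 to 1943 on tumor arrays. The part of islet or progenitor cells in the preparations was not tested.

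Several beta cell genes outside the list were members as well, named after their values were seen. They were Abcc8 and Kcnk16, channel proteins, Slc2a2, a glucose transporter, G6pc2, an islet phosphatase, and Scgn, a calcium sensor, with gaps of 1.98 to 3.16. Ins2, an insulin gene on the endocrine list, was not a member, although the looser limma call described below placed it higher than each other group. Gast, gastrin, had a gap of 1.66. Among 26 measured pancreatic progenitor factors the members were Prox1, a homeobox factor, and Fgfr2, a receptor for FGF10, with gaps of 1.65 and 1.13. Pdx1, the homeobox factor of early pancreas, read 5.25, 5.73 and 5.36 on the embryonic arrays and 6.25 to 6.56 on tumor arrays, and Sox9, a factor of progenitors and ducts, read 8.26, 8.61 and 8.32 against 8.21 to 8.37 in adult cells. Those factors did not set the embryonic cells apart.

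Endothelial genes gave 15 members among 31 measured, with a median of 1.52 above the highest other group. Cdh5, the cadherin of endothelial junctions, read 10.05, 10.05 and 10.07 on the embryonic arrays, 7.20 to 7.71 on adult, 7.05 to 7.60 on ADM and 3.79 to 3.93 on tumor arrays. Lyve1, a hyaluronan receptor of lymphatic vessels and some macrophages, read 9.25, 8.59 and 8.69 against 3.66 to 4.64, and Aplnr, the apelin receptor of sprouting vessels, 8.85, 9.09 and 8.80 against 3.77 to 5.80. Gpihbp1, which anchors lipoprotein lipase on capillaries, and Cd34 had gaps of 2.40 and 2.54. This list was the most even over the embryonic arrays of those with at least 14 members: the mean of its members was 7.16, 7.12 and 7.20 on replicates 1, 2 and 3. The summed signal of all 31 genes was 5751 to 6227 on embryonic, 1205 to 1437 on adult, 1323 to 1477 on ADM and 561 to 645 on tumor arrays. The part of vessel cells in the result was not tested.

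Matrix genes of stromal cells gave 15 members among 58. Ptn, pleiotrophin, a heparin-binding growth factor of developing mesenchyme, had the third widest gap of all genes, with 10.09, 9.69 and 10.05 against 3.05 to 3.97. Mfap2, a microfibril protein, read 8.77, 8.28 and 8.43 against 3.38 to 4.72, and Col14a1, a fibril-associated collagen, 8.30, 7.09 and 7.59 against 3.05 to 3.70. Fbn2, the fibrillin of embryonic elastic fibres, had a gap of 2.93. Col1a1, a chain of fibrillar collagen I, did not separate: it read 9.55, 8.97 and 9.03 on embryonic and 7.57 to 8.82 on ADM arrays. The neighbours Dcn and Lum, proteoglycans that regulate collagen fibrils, and Col6a1 and Col6a2, collagen VI chains, were all members, with gaps of 1.06 to 1.93. The summed signal of the list was 16100 to 24290 on embryonic, 2541 to 2879 on adult, 11050 to 20280 on ADM and 3901 to 5353 on tumor arrays, so embryonic and ADM arrays overlapped. Of the 15 members, 14 were lowest on embryonic replicate 2, and the part of stromal cells was not tested.

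Regulators of the gut and pancreatic mesenchyme gave 4 members of 43: Osr1, Osr2, Meox2 and Tcf21. The median gene of this list lay only 0.09 above the highest other group. Its summed signal was 2218 to 3109 on embryonic and at most 1711 on other arrays. Twist1, a factor of the list, read 4.38 to 4.56 on embryonic and 7.27 to 7.81 on tumor arrays. The part of mesenchymal cells was not tested. Osr1, a zinc finger factor of embryonic mesoderm, read 9.61, 9.11 and 9.08 against 4.03 to 5.03, 23.3-fold above the adult mean. Mesothelial genes gave 4 of 16, namely Gpm6a, Upk3b, Wt1 and Tcf21, which both lists hold. Upk3b, a uroplakin of mesothelial cells, read 9.14, 8.20 and 8.37 against 3.25 to 5.42. The summed signal of the mesothelial list was 1586 to 2383 on embryonic arrays, below its 2506 to 2877 on ADM and 3268 to 3476 on tumor arrays. The median gene of the list lay 0.78 above the highest other group. In the limma call described below, 8 of 16 were higher in embryonic cells than in each other group, against 2.45% of all genes. Both values use the contrast of the rule and are a description. The part of mesothelial cells was not tested. Muscle genes gave 4 of 31: Actg2, the enteric smooth muscle actin, Des, desmin, and the neighbours Kcnj8 and Abcc9, which form an ATP-sensitive potassium channel of pericytes. The median gene of the muscle list lay -0.14 from the highest other group. Its summed signal was 2196 to 3413 on embryonic and 1456 to 2754 on ADM arrays, which overlap. Tnnt2, a troponin of the list, read 4.93 to 5.31 on embryonic and 9.56 to 10.32 on tumor arrays. The part of muscle cells was not tested. Agtr2, the type 2 angiotensin receptor abundant in fetal mesenchyme, was in no list and read 9.13, 8.22 and 8.47 against 2.64 to 3.22, at least 31.7-fold.

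Signalling lists held from 2.56% to 15% members, against 1.21% of all genes. Most of these shares rest on 1 member, and Dlk1, Fgfr2, Rbp2 and Rbp4 count in other lists too. The median gene of these lists lay from -0.49 (BMP) to 0.09 (Hedgehog) from the highest other group, so most of their genes did not set the embryonic cells apart. Wnt genes gave 3 of 49, the secreted inhibitors Sfrp1, Sfrp2 and Dkk2, with gaps of 1.20 to 1.36. Retinoic acid genes gave 3 of 20, of which Rbp4, the retinol carrier of plasma, read 8.47, 8.44 and 8.34 against 5.15 to 5.97, Crabp1, a cellular retinoic acid binding protein, 6, 5.33 and 4.81 against 2.74 to 3.22, and Rbp2 is described with the gut genes. Hedgehog, Notch, FGF, BMP and axon guidance lists gave 1 member each: Cdon, a Hedgehog co-receptor, Dlk1, Fgfr2, Bambi, a decoy receptor, and Sema3d, a semaphorin. Neural and Schwann genes gave 4 of 30, Stmn2, Gap43, Snap25 and Ednrb. Stmn2, a microtubule regulator of growing axons, read 7.32, 7.41 and 7.33 against 3.29 to 4.02; Sox10, which defines Schwann cells and their precursors, read 3.49 to 3.86 on embryonic and 3.07 to 4.02 on the other arrays. The summed signal of the neural list was 1459 to 1549 on embryonic and at most 1012 on other arrays, and the part of nerve cells was not tested.

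Blood cell genes other than those of neutrophils were split. Macrophage and lymphoid genes gave 6 of 30, with Fcer1g and Tyrobp, signalling adaptors of myeloid cells, at gaps of 2.14 and 1.87, and C1qa and C1qb, complement chains of tissue macrophages, at 1.76 and 1.41. Their list summed to 2702 to 3830 on embryonic and at most 1951 on other arrays. Mast cell and megakaryocyte genes gave 6 of 19, Cd34 among them: Cpa3, mast cell carboxypeptidase, read 9.02, 8.41 and 8.87 against 3.00 to 4.46, and Tpsb2, Hdc, Cma1 and Mcpt4, a tryptase, the histamine-forming enzyme and 2 chymases, had gaps of 1.25 to 2.78. Tpsab1, another mast cell tryptase of the list, read 3.07, 3.40 and 3.21 on the embryonic arrays, under the background level, with a gap of -0.53. The mast cell and megakaryocyte list summed to 1913 to 2604 on embryonic and 403 to 2083 on tumor arrays. The part of these blood cells was not tested. None of 25 erythroid genes was a member. Hba-x, an embryonic globin, met the rule once embryonic replicate 2 was left out, and Slc4a1, the red cell anion exchanger, read 5.34, 6.16 and 4.72 against 3.35 to 4.6.

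Intestinal genes gave 5 members of 38, and these were the least even of all. Fabp1, a fatty acid carrier of liver and gut, read 7.93, 10.91 and 11.73 on embryonic replicates 1, 2 and 3 against 2.60 to 3.59 elsewhere. Fabp2, its intestinal relative, read 8.94, 11 and 11.79, Rbp2, an intestinal retinol carrier, 8.49, 9.98 and 11, and Apoa4, an enterocyte apolipoprotein, 6.86, 10.16 and 11.17; their highest other values were 5.63, 5.27 and 3.82. All 4 were lowest on replicate 1 and highest on replicate 3. Agr2, a disulfide isomerase of mucous cells, read 8.39, 9.08 and 8.15 and did not share that order. Muc13 and Lct, a mucin and lactase of the gut lining, were not members because replicate 1 lay at the level of the other groups: Muc13 read 3.70, 7.53 and 9.54, and Lct 3.18, 5.98 and 8.07. Without replicate 1, 13 of the 38 genes met the rule. The summed signal of the list was 3280 to 21230 on embryonic, 2056 to 2361 on adult, 3011 to 3831 on ADM and 2003 to 2399 on tumor arrays, and the part of gut epithelium in the result was not tested. Hepatic genes gave 3 of 33, Fabp1, Rbp4 and Ambp, and summed to 7747 to 13900 on embryonic against 6733 to 7370 on adult arrays.

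**Figure D4:**
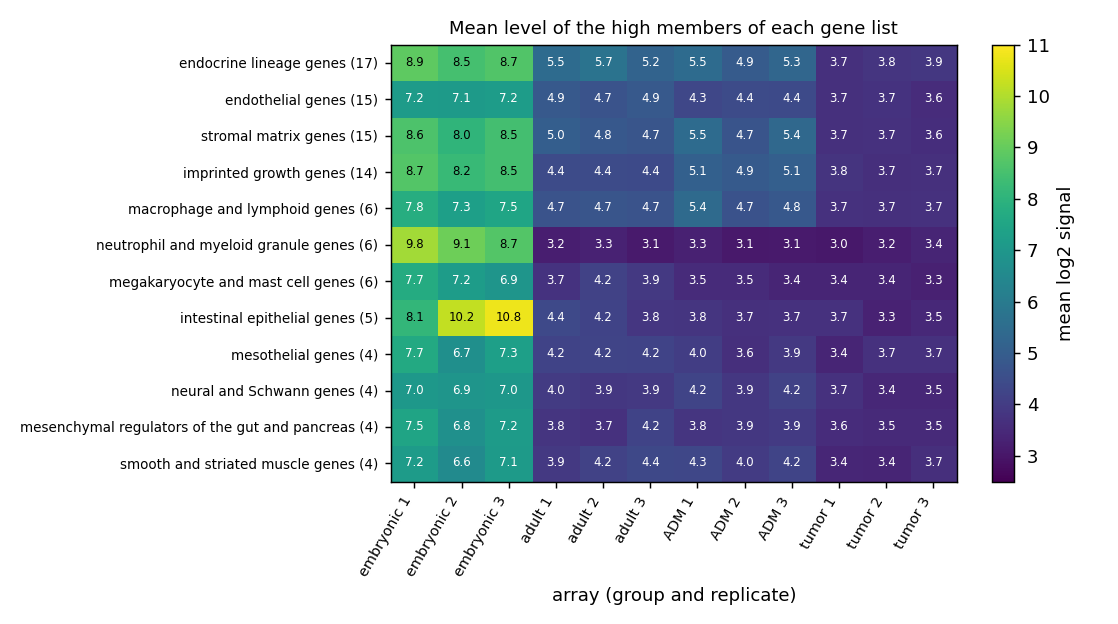
Mean log2 signal (colour and printed number) of the high members of each gene list with at least 4 of them (rows, number of members in brackets) on each of the 12 arrays (columns). The first 3 columns, the embryonic arrays, are brightest in every row because the rule chose the genes so; the intestinal row runs from 8.12 to 10.77 within them, the endothelial row from 7.12 to 7.20.

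Lists with no member came next; at 1.21% of all genes a short list may well hold none. No gene of mitosis (25 measured), DNA replication (24), Hox clusters (36), polycomb complexes (28) or DNA methylation and germline genes (24) was a member. Interferon (37), NFkB and injury (35), immediate early (25), circadian and glucocorticoid (25), keratin and junction (34) and lysosome genes (31) and acinar transcription factors (11) gave none either. Gastric genes gave Gast, 1 of 20, and antigen processing genes Psmb9, a proteasome subunit, 1 of 21. The 37 detoxification genes gave 0 high members and 1 low member. Mki67, a marker of dividing cells, read 7.95, 8.31 and 7.93 on embryonic arrays and 7.98 to 9.27 on tumor arrays, against 4.74 to 5.41 in adult cells, and the median mitosis gene lay 1.23 below the highest other group. H1f5, a linker histone, was the single histone member, with 11.23, 11.22 and 10.78 on embryonic arrays and 9.06 to 9.43 on ADM arrays. B2m and H2-K1, of class I antigen presentation, did not separate: B2m read 11.40 to 12.03 on embryonic and 10.87 to 11.98 on other arrays, and H2-K1 7.28 to 7.72 and 7.27 to 8.55. Over all lists, 1130 genes were measured, and 114 high members were among them, leaving 154 in no list.

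A call by limma (adjusted p under 0.05 and at least 1 log2 unit in each of the 3 comparisons) was a looser criterion than the rule on the same contrast, and so no support for it. By it, 543 genes were higher in embryonic cells than in each other group (2.45%), which included all 268 high members, and 17 were lower (0.0766%). Among the 1130 listed genes, 192 were higher and 1 was lower. Of imprinted growth genes 16 of 23 were called higher, of endocrine genes 22 of 34, of endothelial genes 21 of 31, of stromal matrix genes 22 of 58, of intestinal genes 11 of 38 and of acinar enzymes 0 of 32. None of these lists had a gene called lower.

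The low members were Slc7a11, Galnt3, Cp and Perp. Slc7a11, the cystine importer that feeds glutathione synthesis, read 4.06, 5.93 and 5.46 on the embryonic arrays, 7.34 to 7.80 on adult, 7.66 to 9.11 on ADM and 8.20 to 9.29 on tumor arrays. Galnt3, which starts mucin-type glycosylation, read 6.27, 6.23 and 6.56 against 7.71 to 9.95. Cp, ceruloplasmin, a copper-carrying ferroxidase, read 5.28, 5.33 and 5.53 against 6.67 to 9.83, and Perp, a desmosomal protein and p53 target, 6.33, 6.59 and 6.84 against 7.86 to 8.45. The adult cells were nearest to the embryonic cells in all 4. Krt19, a ductal keratin, was in neither set: it read 7.65 to 7.96 on embryonic, 6.85 to 7.01 on adult and 10.01 to 10.48 on the cultured arrays.

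The behaviour of the members among the 3 other groups was compared next, with limma over all 12 arrays. Between ADM and adult cells 28 of the 268 high members were higher in ADM (10.4%; 12.5% of all genes) and 13 were lower (4.85%; 4.22% of all genes), shares near the background. The scaling mattered here. Counting the 4 low members too, the split was 30 higher and 13 lower as deposited, 23 and 19 after quantile, 16 and 21 after cyclic loess and 16 and 35 after housekeeping centring, which itself shifted the median gene by -0.41. The higher calls below are those of the values as deposited.

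H1f5 was 5.11 ± 0.43 (SE) higher in ADM than in adult cells, with 9.43, 9.06 and 9.22 on ADM arrays against 3.06 to 5.04 (limma, adjusted p = 1.3e-06). Nt5dc2, a nucleotidase-domain protein, was 3.12 ± 0.27 higher and Maf, a bZIP factor, 2.63 ± 0.70 higher (limma, adjusted p = 1.5e-06 and 0.0103). Mest was 2.49 ± 0.34 higher in ADM cells, Nnat 1.36 ± 0.22 and Rian 1.74 ± 0.33 (limma, adjusted p = 7.4e-05, 0.00028 and 0.0012). The difference for Igf2 was -0.18 ± 0.19 (limma, adjusted p = 0.48). Of the other imprinted members, Slc38a4 and Ndn were also called higher, and Plagl1 was called lower, by 1.12 ± 0.29 (limma, adjusted p = 0.0081). The rule kept every ADM array of a high member below its embryonic arrays. Members higher in ADM than in adult cells therefore lay between the adult and the embryonic level by construction. Igf2 was not called. In the other direction, Sst was 2.87 ± 0.27 lower in ADM cells, Agr2, under the background level in ADM cells, at least 2.35 lower, and Cd36, a fatty acid transporter of capillaries, 2.07 ± 0.26 lower. Of the low members, Cp was 2.38 ± 0.34 and Galnt3 1.85 ± 0.16 higher in ADM than in adult cells.

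Part of the embryonic-high genes was lower in tumor cells than in either other group. Against adult cells 62 were lower (23.1%; 5.96% of all genes) and 3 higher (1.12%; 14% of all genes), and against ADM cultures 71 were lower (26.5%; 5.07% of all genes) and 2 higher (0.746%; 3.28% of all genes). The median high member lay -0.43 from adult and -0.41 from ADM cells, against -0.09 and 0.06 for all genes. The rule caps rises but not falls, and 160 of these genes were at or under the background level in tumor cells. Some of the falls reach 1 log2 unit only through values under that level. Measured down to it, Myct1 fell by at least 0.56 from adult cells and Cltrn by at least 0.14 from ADM cells. AF357355 had ADM and tumor means of 3.51 and 2.49, both under it. With housekeeping centring, which shifts the median gene by -0.69, the members lower in tumor than in adult cells went from 62 to 171.

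Dcn read 9.33 to 9.39 on adult arrays and 2.98 to 3.27, under the background level, on tumor arrays, a fall of at least 5.74 against that level (limma, adjusted p = 1.2e-08). Sparcl1, a matrix-associated glycoprotein, was also under it in tumor cells, a fall of at least 4.10. Gcg differed by -4.35 ± 0.39 and Cdh5 by -3.66 ± 0.17, and both stayed above the background level on all tumor arrays. Of the 62 members lower in tumor than in adult cells, 34 had a tumor mean at or under it, so that their differences are lower bounds. Nt5dc2 was 3.56 ± 0.27 higher in tumor than in adult cells, with 7.04, 7.63 and 7.81 against 3.74 to 4.19 (limma, adjusted p = 2.5e-07). Trav9d-3, a T cell receptor segment, and Calml4, a calmodulin-like protein, had adult means under the background level and were at least 1.71 and 1.21 higher in tumor cells (limma, adjusted p = 0.00019 and 0.012). Without tumor replicate 1, the 5 members higher in tumor than adult cells, Cp and Galnt3 included, became 3. Calml4 and Trav9d-3 were also the 2 members higher in tumor than in ADM cells, by at least 1.21 and by 1.5 ± 0.31, and without ADM replicate 2 only 1 was called.

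Members varied more than other genes over the embryonic arrays, with a median SD of 0.31 against 0.18 for all genes, and 211 of 268 stayed under 0.5. The 11 members with an SD over 1 included the intestinal genes Apoa4, Fabp1, Fabp2 and Rbp2, the mast cell gene Cma1 and the stefin gene Csta3. Of the 268, 170 were highest on replicate 1 and 157 lowest on replicate 2, against 7046 and 7097 of all 22180 genes. The order differed by list: stromal, mesothelial and imprinted genes were lowest on replicate 2, neutrophil genes lowest on replicate 3 and intestinal genes lowest on replicate 1. No array was low in every list, and the cause of these shifts was not tested.

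**Figure D5:**
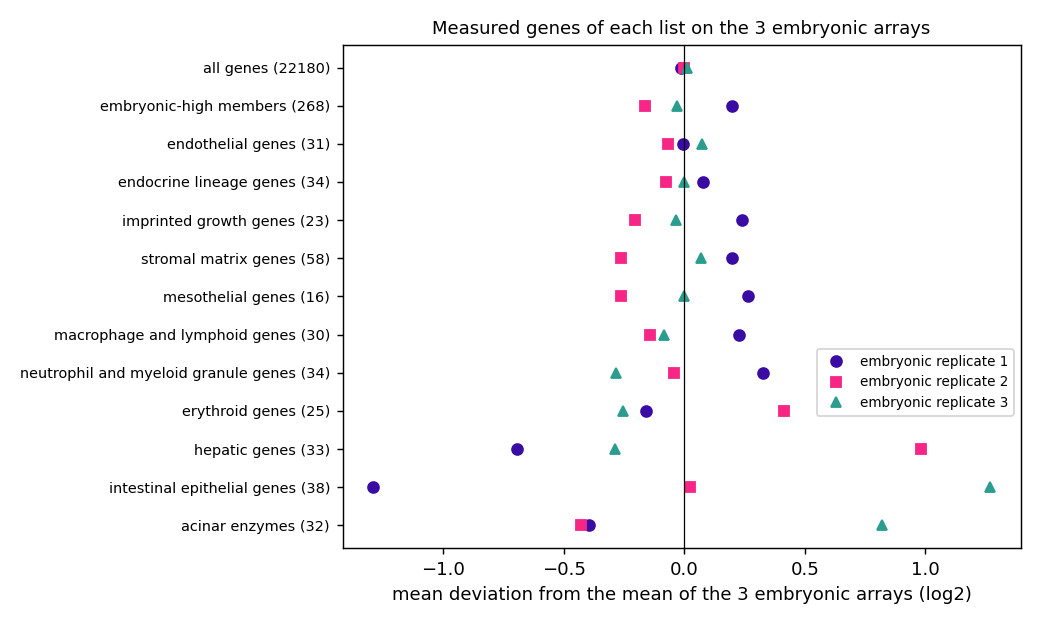
Mean deviation (x axis, log2) of the measured genes of each list (y axis, number of genes in brackets) on each embryonic array from the mean of the 3 embryonic arrays. Endothelial genes lie near 0 on all 3 arrays, while intestinal genes lie at -1.29 on replicate 1 and 1.27 on replicate 3.

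High members were spread over all autosomes and the X chromosome, from 3 on chromosome 18 to 20 on chromosomes 2 and 6, with 14 on the X chromosome. There were 16 pairs of members that are consecutive among the measured genes, made up of 30 genes. Besides those named above, they held Gucy1a1 and Gucy1b1, the subunits of the nitric oxide receptor guanylate cyclase, with gaps of 2.62 and 1.20, Dpp4 and Gcg with 1.63 and 1.15, Rtp4 and Sst with 1.30 and 2.35, and Nt5dc2 and Stab1 with 1.44 and 1.21. Neighbours can thus be parts of the same protein complex, as the cyclase subunits are, or differ in protein type, as Dpp4, a peptidase, and Gcg, glucagon, do.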

How the data were processed

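Expression was measured on 12 Affymetrix arrays. The deposited table holds log2 signal of 41345 probe sets with 2 decimals, from 1.56 to 13.67; the log base was inferred from this range, and the software and normalization are not given in the sources used here. Groups came from the sample labels. The platform annotation gave 1 gene symbol to 23521 probe sets, several to 1814 and none to 16010; only the first kind was used, and for 1082 genes the brightest probe set over all arrays. Probe sets of close paralogs may read each other's RNA. Members, gene lists and tests were chosen with earlier results of these data known.

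Contrasts were fitted on all 12 arrays with limma 3.58.1 (R 4.3.3) without a block, two-sided, with Benjamini-Hochberg adjustment over 22180 genes; a call needed an adjusted p under 0.05 and 1 log2 unit. SE comes from this fit (n = 3 arrays a group). Named genes were the 14 widest high and up to 10 widest low members, up to 4 members per list (42 lists, 1327 entries), fixed marker genes, genes at the threshold, consecutive members and the 3 largest called members per direction; other genes named were chosen after their values were seen. Each summed signal adds 2 to the power of the log2 values. The number of arrays limits the precision. Tests were checked on simulated data. Alternatives were other scalings, gaps, probe set rules, a replicate block, array weights and leaving out each array. Chromosome order and sequences came from RefSeq (GRCm38.p6), where 195 of 272 members had a promoter.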

Additional observations from a re-analysis of the deposited data

Results flagged for a closer look

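Signal outside the genes described above met the same rule. Among the 1814 probe sets that the annotation gives several symbols, 32 lay at least 1 log2 unit above all other arrays on every embryonic array, and 0 lay below. Among the 16010 probe sets with no symbol, 38 lay above and 0 below. These probe sets were left unnamed, since the annotation gives no single gene for them.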

How the results depend on the processing

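High members numbered 245 after quantile normalization, 271 after cyclic loess, 254 after housekeeping centring and 261 with the mean of a gene's probe sets, of which 239, 257, 240 and 260 were among the 268. Only 23 of the 268 have several probe sets, so taking the mean could change no other member. Of the 33 other probe sets of these 23 genes, 12 met the rule. For 10 of the 23 genes another probe set met it. They numbered 489 at a gap of 0.5, 105 at a gap of 2 and 268 to 343 without single arrays. Low members numbered 25 at a gap of 0.5, 0 at a gap of 2 and 4 to 8 without single arrays, with 8 without embryonic replicate 3. Leaving out an array can only keep or add high or low members, so these counts without single arrays could not fall. Of 101 named members, 92 kept a gap of at least 1 under every scaling and probe set setting run, and all 101 a gap above 0.

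Between ADM and adult cells, members called higher went from 30 to 16 after loess and 16 after housekeeping centring, and those lower from 13 to 21, 35 and, with no minimum difference, 30. Between tumor and adult cells, 5 higher became 3 and 2 under the same scalings, and 62 lower became 171 after housekeeping centring and 98 with no minimum difference. Housekeeping centring shifts the median gene by -0.69 there; otherwise the cause was not tested. Listed genes called lower went from 1 to 2 after loess, 2 after housekeeping centring and 5 with no minimum difference. Without single arrays the ranges were 23 to 31 higher and 13 to 16 lower for ADM against adult, 3 to 6 and 56 to 63 for tumor against adult, 1 to 2 and 62 to 77 for tumor against ADM, and 175 to 193 and 1 to 2 for listed genes. After loess and after housekeeping centring the ADM against adult calls thus turned from mostly higher to mostly lower.

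The replicate numbers did not pair the arrays: same-numbered arrays of different groups correlated at -0.048 to 0.128 in their deviations, other pairs at -0.122 to 0.11, and 5 of 12 arrays correlated best with their own number. With the replicate block the counts were 29 and 14 for ADM against adult, 5 and 62 for tumor against adult, 2 and 72 for tumor against ADM, and 193 and 1 for listed genes. With 3 arrays a group, small differences could be missed.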
